A study of Mus musculus with 2 samples.

Results

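The genes described here are 35 genes of fibroblast growth factor (FGF) and ERK signalling, measured in Drosha knockout mouse embryonic stem (ES) cells. They were chosen by name and role, with earlier results of these data known, and all 35 were found among the 43629 gene rows of both count tables. They comprise 11 FGF family genes, 4 receptors, 4 adaptors and exchange factors, 2 RAS, 2 RAF and 2 MEK genes, 1 ERK gene, 7 feedback inhibitors and 2 ERK targets that encode ETS family transcription factors. Reads were found in each library for 34 of them, while Fgf2 had 0 reads in library A and 1 read in library B.

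In the pathway, a secreted FGF binds a receptor tyrosine kinase on the cell surface together with heparan sulphate. The active receptor phosphorylates the docking protein FRS2, which recruits GRB2 and the exchange factor SOS, and SOS loads RAS with GTP so that the RAF, MEK and ERK kinases are switched on in turn. ERK activity raises the transcripts of Etv4, Etv5 and several of its own inhibitors, which is why these transcripts are often read as a record of pathway output. In mouse ES cells FGF4 is made by the cells themselves and is known as the main signal that readies them to leave the naive pluripotent state.

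Both libraries belong to 1 group: ES cells with the genotype Drosha knockout, on the strain background 129/Ola, at passage 7, grown in serum plus LIF (leukaemia inhibitory factor, which keeps ES cells undifferentiated) and given no treatment. Drosha is the nuclear enzyme that releases microRNA precursors from their primary transcripts, and the series title says that the knockout was made by a paired CRISPR/Cas9 approach. The titles name DroshaKO1d5 for A and DroshaKO2d5 for B, whereas the source name of both libraries is DroshaKO1d5, so the labels do not settle whether A and B are the same clone. They also do not say whether A and B came from separate cultures, and the spread between them may be technical. No wild-type library was analysed here, so every level is a level in knockout cells and no effect of the knockout was measured.

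Poly-A RNA gave 29264632 counts in A and 42322129 in B. Levels are given as CPM (counts scaled to library size) where 1 gene is followed across the libraries, and as TPM (also divided by exon length) where genes are compared with each other. Beyond counting error the libraries differed per gene by a coefficient of variation of 2.25%. It was estimated over the genes with more reads only, so it does not cover genes with few reads such as Fgf5 and Fgf8. All 10 ES cell markers reached 1 CPM in both libraries, led by the pluripotency genes Dppa5a (10136 TPM) and Pou5f1 (1399 TPM), against 3 of 12 feeder fibroblast, 3 of 7 primitive endoderm and 4 of 6 matched primed epiblast markers. Drosha itself had 166 CPM in each library, but a count over the whole gene does not show whether the deleted part was read, so it does not check the label.

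Most of the pathway was present at substantial levels, and the genes under 1 CPM were all FGF family genes. At least 1 CPM in both libraries was reached by 30 of the 35 genes, beside 56.2% of all 24816 genes with a read and 72.8% of the 17124 protein-coding ones. These 30 included all 24 genes downstream of the ligands and 6 of 11 FGF family genes, and the 5 others were Fgf2, Fgf5, Fgf8, Fgf10 and Fgf18. CPM takes no account of length: in TPM Fgf18 (1.30) lay above the receptor gene Fgfr3 (0.739), which reached 1 CPM. The median level of the 35 genes was 22.3 ± 0.198 TPM (SD, n = 2), beside medians of 2.93 TPM over all genes with a read and 7.77 TPM over the protein-coding ones. Etv5, Mapk3, Fgf4, Map2k1, Grb2, Spry2, Etv4 and Nras lay at or above the 90th percentile of all genes with a read, 8 genes in all. Of the 10 genes under the 50th percentile, 8 were FGF family genes, and the others were Fgfr3 and Sos2.

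**Figure D1:**
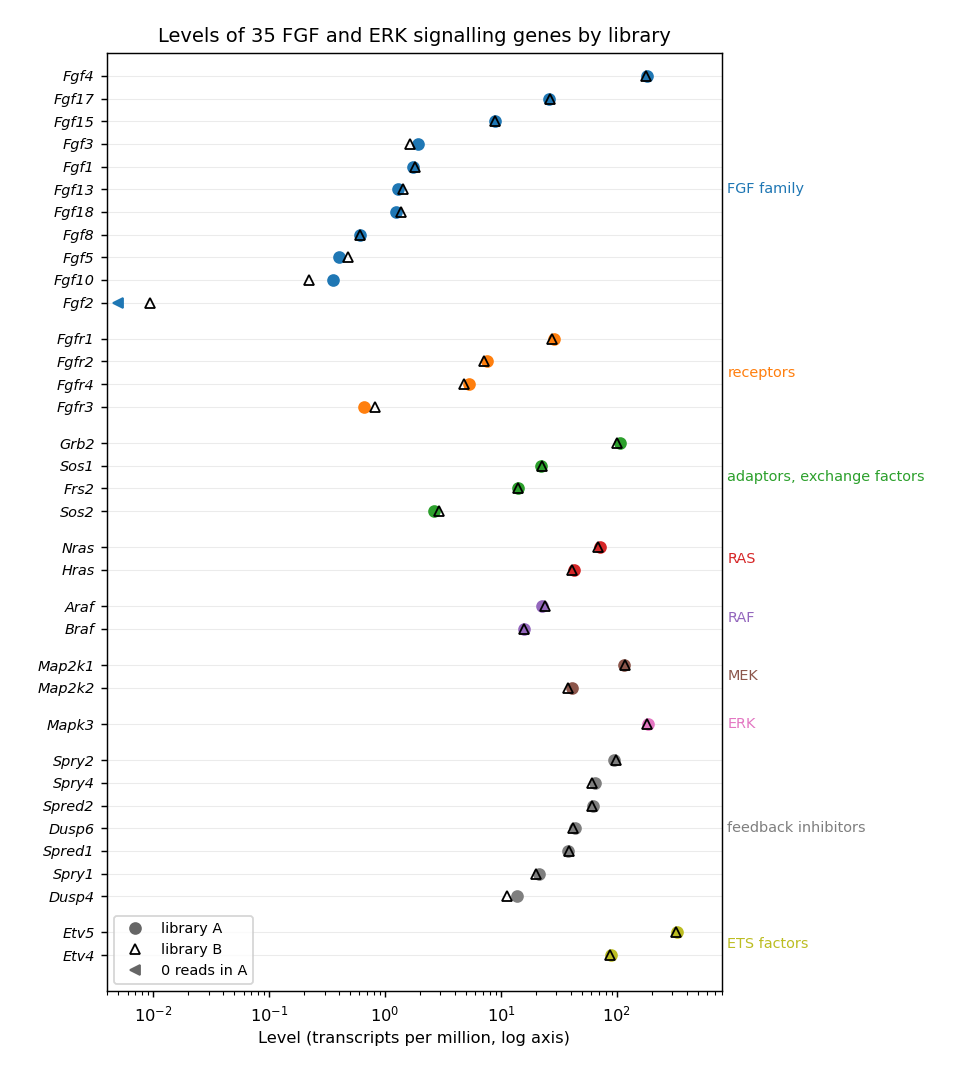
Level of each of the 35 genes in TPM on a log axis, with filled circles for library A and open triangles for library B, grouped by role; the left-pointing triangle marks Fgf2, which had 0 reads in A and is drawn at the axis edge. The libraries nearly coincide for most genes, and the FGF family spans the range from Fgf4 (179.9 TPM) down to Fgf2 (1 read).

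Among the ligands, Fgf4 held most of the RNA. Fgf4 (ENSMUSG00000050917, GRCm38 chromosome 7, 144847367 to 144865243, plus strand), the growth factor that ES cells secrete, had 181 TPM in A and 179 in B. Its share of the summed TPM of the 11 FGF family genes was 81.0% in A and 80.6% in B. Without Fgf13, which encodes an intracellular protein that modulates sodium channels and is not a secreted ligand, the share of Fgf4 was 81.3% ± 0.192 (SD, n = 2). The ligand next in order, Fgf17, a member of the Fgf8 subfamily, had 26.0 TPM in A and 26.5 in B, so that Fgf4 exceeded it by 6.86 ± 0.128 times (SD, n = 2). Fgf15, the mouse counterpart of the hormone FGF19, followed with 8.89 TPM in A and 8.92 in B. These 3 genes together stood apart from the rest of these 11 FGF family genes, of which none exceeded 2 TPM.

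The other listed family members formed a low tail. Fgf3 had 1.93 TPM in A and 1.65 in B, and Fgf1, which encodes the ligand that binds all 4 receptors, had 1.73 and 1.82, so their order was not settled by the libraries. Fgf13 (1.30 TPM in A and 1.44 in B) and Fgf18 (1.23 and 1.38) could not be put in order either. Fgf8, a ligand of the gastrulating embryo, had 0.610 TPM in A and 0.605 in B from 9 and 13 reads. Fgf5, known as a marker of the primed epiblast, had 0.403 TPM in A and 0.477 in B from 11 and 19 reads. Fgf10, a ligand typical of mesenchyme, had 0.358 TPM in A and 0.218 in B from 18 and 16 reads. For Fgf2, the ligand used in culture media for human pluripotent cells, a count of 0 in A allows up to 0.102 CPM, counting error only, and the 1 read in B lies under the same limit there (0.0711 CPM). The Fgf2 exons overlap those of Nudt6 on the opposite strand by 640 bases, and Nudt6 had 73 and 69 reads.

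Outside the 35 genes, 11 further FGF genes added little. Only Fgf11 (5.29 ± 0.253 TPM, SD, n = 2), which like Fgf13 encodes an intracellular protein, and the hormone gene Fgf21 (3.60 ± 0.327 TPM) reached 1 CPM in both libraries. Fgf6 had 0 reads in both, and Fgf9, Fgf16, Fgf14, Fgf12, Fgf20 and Fgf22 had at most 6 reads over both libraries. Fgf7, typical of mesenchyme like Fgf10, had 11 reads in A and 5 in B. Apart from Fgf11 and Fgf21, these genes were named after their values were seen.

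Fgf4 lies in a cluster with 2 other members of its family, and their levels were far apart. On the same strand, Fgf3 (ENSMUSG00000031074, 144838083 to 144844436) starts 9.28 kb before the start of Fgf4 annotated in GENCODE, and Fgf15 (ENSMUSG00000031073, 144896531 to 144900953) starts 49.2 kb after it. The RefSeq start of Fgf4 lies 14.02 kb further on, farther from Fgf3 and nearer to Fgf15. In TPM, Fgf4 exceeded Fgf3 by 93.7 times in A and 109 times in B, and it exceeded Fgf15 by 20.3 and 20.1 times, or by 12.6 times with the longest transcript as length. Of the 14 genes annotated within 200 kb of the start of Fgf4, 7 had a read, 1 (Gm10152) had a row but no read, and 6 had no row. The cyclin D1 gene Ccnd1, whose start lies 92.6 kb after that of Fgf4 on the opposite strand, had 107 TPM in A and 111 in B. LTO1 (3.31 and 3.61 TPM) lies after Fgf15 and overlaps the end of Ccnd1, and its level was below that of Fgf15 in both libraries. The calcium-activated chloride channel gene Ano1, on the far side of Fgf3, had 0.366 and 0.443 TPM. The antisense gene Gm26793 shares 761 exon bases with Fgf15 on the opposite strand and had 2 and 3 reads.

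**Figure D2:**
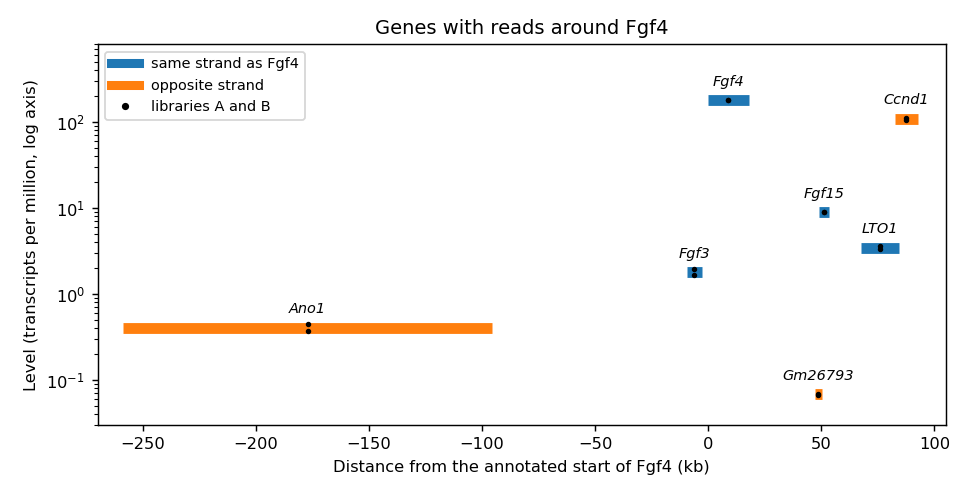
Level in TPM (log axis) against distance from the annotated start of Fgf4 (GENCODE) in kb for the 7 genes with reads in its neighbourhood. Bars span each gene at its mean level, coloured by strand, and the 2 dots on each bar are libraries A and B; Fgf4 and Ccnd1 lie near or above 100 TPM, while Fgf3 between 1.65 and 1.93 TPM is the nearest neighbour.

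Promoter sequences were printed for 4 genes at the ends of the range: Fgf4 and its low neighbour Fgf3, Fgf5 as a ligand with few reads, and Etv5 as the gene with the highest level of the 35. Each run covers 250 bases before and 50 bases from the RefSeq start on GRCm38.p6, 5′ to 3′ on the gene's strand. Capitals mark matches on either strand to common promoter motifs. The GC box was searched as GGGCGG. The TATA box was searched as TATAAA. For the CCAAT box those named letters were used, and the ETS core was searched as CCGGAA. None of the marked matches overlaps another. The RefSeq start of Fgf4 lies 14.02 kb after the start of the GENCODE gene, which includes a longer transcript, and Etv5 has another RefSeq start whose promoter is not printed.
Fgf4, chr7:144861136-144861435, plus strand: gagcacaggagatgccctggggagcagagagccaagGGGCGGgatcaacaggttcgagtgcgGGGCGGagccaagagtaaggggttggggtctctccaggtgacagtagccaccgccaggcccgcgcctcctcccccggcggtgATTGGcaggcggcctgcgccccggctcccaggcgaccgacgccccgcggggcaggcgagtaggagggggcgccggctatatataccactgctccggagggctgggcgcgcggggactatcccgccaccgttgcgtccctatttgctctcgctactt
Fgf3, chr7:144838362-144838661, plus strand: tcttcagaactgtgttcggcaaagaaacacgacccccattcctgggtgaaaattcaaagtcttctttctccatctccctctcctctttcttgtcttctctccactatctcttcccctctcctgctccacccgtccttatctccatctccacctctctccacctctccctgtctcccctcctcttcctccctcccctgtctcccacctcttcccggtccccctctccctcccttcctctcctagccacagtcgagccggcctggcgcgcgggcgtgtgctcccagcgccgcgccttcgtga
Fgf5, chr5:98253934-98254233, plus strand: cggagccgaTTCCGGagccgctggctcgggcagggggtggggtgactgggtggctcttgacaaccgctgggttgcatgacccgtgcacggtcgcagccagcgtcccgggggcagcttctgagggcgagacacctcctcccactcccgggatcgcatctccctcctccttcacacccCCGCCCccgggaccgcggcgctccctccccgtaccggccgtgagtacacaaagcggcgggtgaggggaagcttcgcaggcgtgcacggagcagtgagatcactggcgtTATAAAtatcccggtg
Etv5, chr16:22439521-22439820, minus strand: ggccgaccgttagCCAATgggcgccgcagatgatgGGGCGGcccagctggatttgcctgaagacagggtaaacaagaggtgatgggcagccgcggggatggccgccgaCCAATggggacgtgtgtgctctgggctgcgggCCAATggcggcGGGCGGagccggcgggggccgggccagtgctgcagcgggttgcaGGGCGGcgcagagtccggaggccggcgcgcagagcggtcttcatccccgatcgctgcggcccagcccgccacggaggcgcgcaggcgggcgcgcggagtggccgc

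The 4 promoters differed in the motifs they held. The Fgf4 promoter held GC boxes 214 and 188 bases before its start and a CCAAT box on the opposite strand 106 bases before it. The promoter of Fgf3 held none of the 4 motifs. The Fgf5 promoter held a GC box, an ETS core and, 35 bases after its start, the TATA box letters. The Etv5 promoter held 3 GC boxes and 3 CCAAT boxes. Over the 32 promoters of the 26 genes that matched the RefSeq table, 21 (65.6%) held a GC box, beside 35.7% of all 32851 promoters. A CCAAT box was found in 13 (40.6%, beside 37.4%), an ETS core in 8 (25.0%, beside 14.9%) and a TATA box in 3 (9.38%, beside 13.6%). Their median GC content was 64.7%, beside 52.7% of all promoters. The 28 promoters of genes at 1 CPM or more had a median GC content of 64.7%, and the 4 of genes under 1 CPM had 65.5%.

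All 4 receptors reached 1 CPM in both libraries, and Fgfr1 was the most abundant. Fgfr1 (ENSMUSG00000031565, chromosome 8, 25513654 to 25575718), known as the main FGF receptor of ES cells, had 28.6 TPM in A and 27.6 in B, which was 67.7% and 68.4% of the summed TPM of the receptors. Fgfr2, whose epithelial form binds Fgf10 and Fgf7, had 7.65 and 7.10 TPM, and Fgfr4, the partner of FGF15 in liver, had 5.30 and 4.84 TPM. Fgfr3, a receptor best known from cartilage, had 0.652 TPM in A and 0.825 in B. No neighbours in this order overlapped between the libraries, and Fgfr1 exceeded Fgfr2 by 3.81 ± 0.11 times (SD, n = 2). These ratios depend on the length used: with the longest transcript in place of all annotated exons, Fgfr1 had 44.6 TPM and Fgfr2 13.9 TPM, and the order of the 4 receptors was the same. The Fgfr2 gene model in the annotation extends into Ctbp2 on the same strand, where they share 314 exon bases, and Ctbp2 had 233 and 234 CPM, so the count of Fgfr2 is uncertain.

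Of 15 genes for co-receptors and for heparan sulphate, the sugar chain that FGFs need to bind their receptors, 11 reached 1 CPM in both libraries. The proteoglycan core genes Sdc4 (144 ± 1.57 TPM, SD, n = 2) and Gpc3 (57.2 ± 0.678 TPM) were the most abundant of this list. The Klotho co-receptors of the hormone-like FGFs were under 1 CPM, with 20 and 25 reads for Klb and 5 and 4 for Kl; they were named after their values were seen.

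Between receptor and RAS, the levels of the 4 genes were unequal. Grb2 (ENSMUSG00000059923), the adaptor that links receptors to SOS, had 106 TPM in A and 101 in B. Frs2, which encodes the docking protein, had 45.6 CPM in A and 46.6 in B, or 14.1 ± 0.0841 TPM (SD, n = 2). Of the exchange factor genes, Sos1 had 22.1 TPM in A and 22.4 in B and Sos2 had 2.62 and 2.93, so Sos1 made up 88.9% ± 0.681 of their sum (SD, n = 2). All 7 further adaptor genes reached 1 CPM, led by Gab1 at 137 ± 1.04 TPM, whose protein links receptors to the phosphatase SHP2, and Shc1 at 55.0 ± 1.56 TPM.

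For the RAS genes, which encode the GTP switch, Nras had 72.0 TPM in A and 68.3 in B and Hras had 42.5 and 41.4. Nras thus held 62.6% ± 0.415 of the sum of this pair (SD, n = 2), and their ranges did not overlap. All 8 RAS relatives and regulators listed beside them reached 1 CPM in both libraries, among them Rras at 44.4 ± 0.0237 TPM.

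At the RAF step, where RAS binds the first kinase of the chain, Araf had 22.4 TPM in A and 23.9 in B and Braf had 15.9 and 15.6. Araf held 58.5% of the sum of this pair in A and 60.4% in B. Their order rests on length: with the longest transcript Araf had 43.0 TPM and Braf 18.2, whereas in CPM, without length, Braf was the higher (81.9 beside 56.7).

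MEK, the kinase that phosphorylates ERK, was encoded mostly by Map2k1, with 115 TPM in A and 118 in B, while Map2k2 had 41.0 and 37.9. Map2k1 thus made up 74.7% ± 1.37 of the MEK transcripts (SD, n = 2), or 63.6% with the longest transcript, where Map2k2 had 75.2 TPM. Mapk3 (ENSMUSG00000063065, chromosome 7, 126759601 to 126765819), which encodes ERK1, had 187 TPM in A and 183 in B and ranked next to Etv5 among the 35 genes. Among 9 further kinase and scaffold genes, all at 1 CPM or more, Pebp1, which encodes an inhibitor of the RAF step, had the highest level at 215 ± 5.70 TPM.

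The feedback inhibitors were all expressed, and each of the 7 exceeded 10 TPM with all annotated exons as length. With the longest transcript Dusp4 had 11.1 TPM in A and 9.11 in B. Spry2, a Sprouty gene induced by ERK, was the most abundant, with 95.3 TPM in A and 97.8 in B. Spry4 followed with 64.6 and 60.7 TPM, a range that overlapped that of Spred2 (61.8 and 61.3 TPM), whose protein binds neurofibromin and restrains RAS. Spry1 had 21.2 and 19.9 TPM. Of the summed TPM of the 3 Sprouty genes, Spry2 held 53.7% ± 1.55, Spry4 34.9% ± 1.16 and Spry1 11.4% ± 0.387 (SD, n = 2). In CPM Spry4 was the higher of the leading pair, with 53.3% of the counts. Spred1 had 38.2 TPM in A and 38.6 in B.

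The phosphatase genes differed from each other. Dusp6, which encodes the cytoplasmic phosphatase that removes phosphate from ERK, had 43.2 TPM in A and 41.6 in B, and Dusp4, which encodes a nuclear one, had 13.7 and 11.2. Dusp6 exceeded Dusp4 by 3.43 ± 0.384 times (SD, n = 2). Among 8 further inhibitor genes, 7 at 1 CPM or more, the phosphatase genes Dusp9 (123 ± 0.257 TPM) and Dusp1 (26.5 ± 0.234 TPM) were the most abundant, so Dusp9, which was not among the 35, had a higher level than any of the 7 inhibitors that were.

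Of the targets that encode ETS factors, Etv5 (ENSMUSG00000013089, chromosome 16, 22381309 to 22439719) had the highest level of all 35 genes, with 329 TPM in A and 324 in B from 14728 and 21139 reads. Etv4, its close relative, had 89.2 and 87.0 TPM, and Etv5 exceeded it by 3.70 ± 0.0274 times (SD, n = 2). Both encode factors of the PEA3 subfamily, which turn on FGF-responsive genes. Among 14 further ERK-responsive genes and ETS factors, 13 reached 1 CPM in both libraries, led by the immediate early genes Ier2 (171 ± 9.16 TPM) and Egr1 (112 ± 4.73 TPM).

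**Figure D3:**
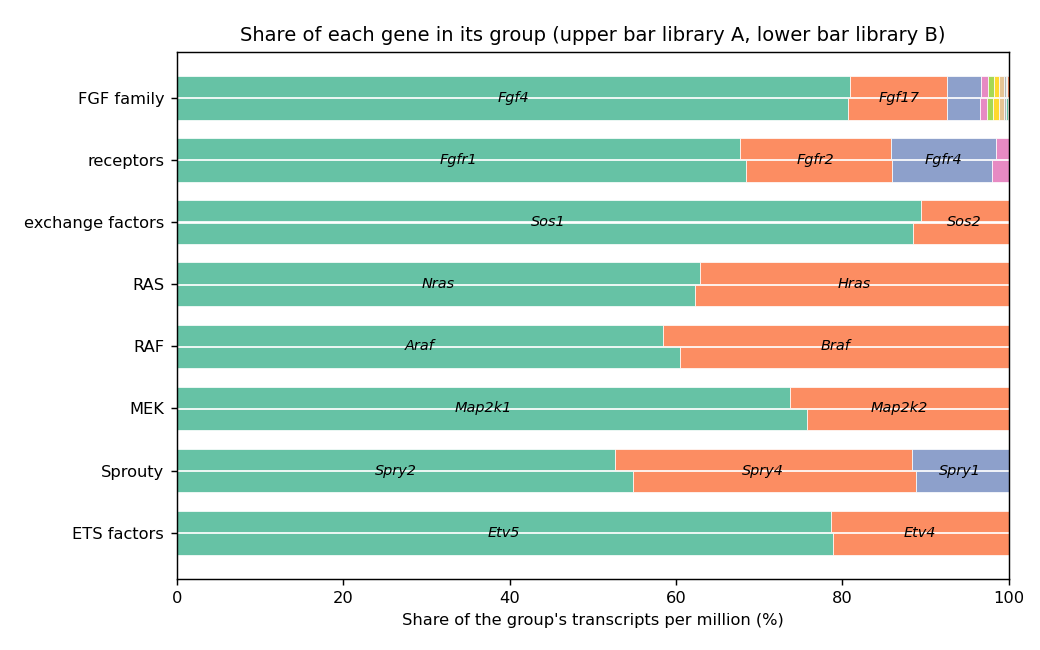
Share of each gene in the summed TPM of its group (the genes among the 35 only) in percent, with the upper bar of each pair for library A and the lower for library B; segments too narrow for a name are left blank, and the exchange factors are Sos1 and Sos2 without the adaptors. The bars of A and B nearly coincide, and Sos1, Fgf4, Etv5, Map2k1, Fgfr1 and Nras each held over 60% of their group in both libraries.

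Across the whole list the order of levels was nearly the same in A and B. In TPM 29 of 35 genes had the same rank in both libraries, and no gene moved by more than 1 rank. Of the 34 pairs of neighbours in the order, 6 had library ranges that overlapped and could not be told apart. With the longest transcript as length, 24 of the 34 pairs kept their order, and Fgfr1, Fgfr2, Araf and Map2k2 moved by over 1.5 times.

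The libraries were then compared gene by gene. For each of the 18198 genes with at least 10 reads, a two-sided exact binomial test set the part of its reads that came from B against the part given by library size, with Benjamini-Hochberg adjustment over all of them. This compares the libraries, not conditions, and covers counting error only. Of the 34 genes with enough reads 0 were called at an adjusted p of 0.05, beside 2.29% of all genes tested (237 higher in B and 180 higher in A). At an unadjusted exact binomial p under 0.05 there were 4 of 34, beside 12.4% of all genes. The exact test of edgeR, run at a presumed between-library variation (CV) of 0.1, called 0 of the 34 and 1 gene over all those tested. The median log2 ratio of B over A was -0.0041 over these genes and -0.00084 over all genes tested, with 16 genes higher in B and 18 higher in A. For 2 of them, Fgf10 and Fgfr3, the higher library was at least 25% above the lower, beside 16.7% of all genes. Of the 34 genes 26 lay within 1.1-fold, but the share of all tested genes within 1.1-fold was not taken. The listed genes had a higher median TPM than all genes with a read, and counting error is relatively smaller with more reads. Whether the 34 genes lay closer than other genes with as many reads was not tested.

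For the abundant genes the interval of the difference was narrow. Etv5 had 502 CPM in A and 501 in B. Its log2 ratio was -0.0037, with a 95% interval of -0.034 to 0.027 that covers counting error only. Fgf4 had 215 and 216 CPM, with a log2 ratio of 0.0058 (-0.041 to 0.052). The 4 genes with an unadjusted exact binomial p under 0.05 had log2 ratios between -0.26 and 0.11. Dusp4 had 13.9 CPM in A and 11.6 in B (log2 ratio -0.26, interval -0.46 to -0.071), and its adjusted exact binomial p of 0.14 was the smallest of the list. Araf was higher in B (54.5 and 59.0 CPM, log2 ratio 0.11), and Map2k2 (86.4 and 80.9 CPM, -0.095) and Spry4 (114 and 109 CPM, -0.071) were higher in A, with adjusted exact binomial p of 0.21, 0.20 and 0.32.

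For Fgf10 and Fgfr3 a difference between the libraries was not detectable at this depth. Fgf10 had 0.614 CPM in A and 0.379 in B, and the interval of its log2 ratio (-0.69) ran from -1.76 to 0.36. Fgfr3 had 1.74 and 2.23 CPM, with a log2 ratio of 0.35 (-0.15 to 0.88). Markers of feeder fibroblasts, the mesenchymal cells on which ES cells are often grown, were in part lower in B. Of 12 such markers 8 were tested and 4 called by the exact binomial test, beside 2.29% of all genes tested. This test covers counting error only, and the called markers had at most 51 reads in A and 24 in B. All 4 were higher in A: Dcn (1.74 CPM in A and 0.569 in B), Col3a1 (1.60 and 0.332), Col1a2 (1.23 and 0.379) and Postn (0.750 and 0.190). The summed level of the list was 61.9 CPM in A and 56.5 in B, of which Thy1 (42.9 and 43.7 CPM) and Pdgfrb (10.3 and 9.05 CPM) gave most, and Twist2 was at 0 in both. Their part in the level of Fgf10, and in that of Fgf7 (0.375 and 0.118 CPM), was not tested. Fewer cells of a type and less RNA per cell cannot be told apart in such bulk libraries.

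**Figure D4:**
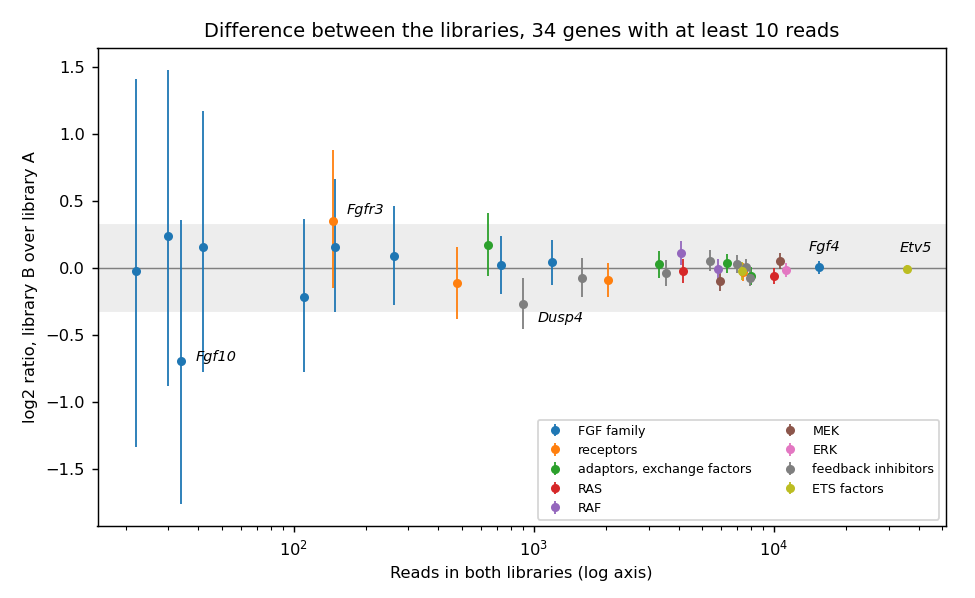
Log2 ratio of library B over library A against the reads in both libraries (log axis) for the 34 genes with at least 10 reads, coloured by role. Bars are 95% intervals for counting error only and the grey band marks differences under 25% of the lower library; Fgf10 and Fgfr3 lie outside it with intervals that include 0.

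Of 72 further pathway genes all had a row, 57 reached 1 CPM in both libraries and 64 had enough reads to be tested. By the exact binomial test 0 of these were called and 8 had an unadjusted p under 0.05, beside 2.29% and 12.4% of all genes tested. In each list the median log2 ratio lay between -0.057, for the ERK-responsive genes and ETS factors, and 0.037, for the further ligands. Ier2 (101 and 94.4 CPM, log2 ratio -0.091) and Egr1 (193 and 184 CPM, -0.068) were lower in B at an unadjusted level only, with adjusted exact binomial p of 0.17 and 0.15. Of the 10 ES cell markers 2 were called by the same test, Dppa5a (log2 ratio 0.071) and Tdgf1 (0.051), both higher in B. This test covers counting error only, and Dppa5a had 67292 reads in A and 101702 in B. Over the list 5 had an unadjusted exact binomial p under 0.05, and 4 were higher in B and 6 in A. Dnmt3b (145 ± 0.893 TPM, SD, n = 2) and Zic2 (39.0 ± 2.75 TPM) were the most abundant of the primed epiblast markers. Gata4 (3.19 ± 0.422 TPM) and Dab2 (1.79 ± 0.127 TPM) were the most abundant of the primitive endoderm markers. In either list 0 were called, and 1 gene in each had an unadjusted exact binomial p under 0.05. All 6 tested primitive endoderm markers were higher in A (median log2 ratio -0.21), the direction of the called feeder markers. Of the tested primed epiblast markers 4 were higher in B and 2 in A.

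Ratios of B over A also followed the GC content of the transcripts. The median log2 ratio was 0.039 in the fifth of genes with the lowest GC content and -0.055 in the fifth with the highest. With this trend removed 0 of the 34 genes were called (smallest adjusted exact binomial p 0.13, for Nras), beside 144 calls over all genes tested. Those with an unadjusted exact binomial p under 0.05 were Nras (log2 ratio -0.092), Araf (0.096), Spry4 (-0.069) and Dusp4 (-0.22). Overlapping genes were a further limit for 9 of the 35 genes, 8 of them with a gene on the opposite strand. These are Fgf2, Fgf10, Fgf15, Fgfr1, Fgfr3, Araf, Braf and Spry1, with Gm16263, Gm16159, G630022F23Rik, Syn1, Ndufb2 and Gm42922 among the partners.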

How the data were processed

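The authors deposited raw counts of reads for each Ensembl gene, with each library in its own file, per the file headers. The submitters' processing notes name STAR 2.4.2a, featureCounts 1.4.5-p1 and mm10 without roles. The labels' protocols give Trizol extraction, the TruSeq RNA kit and a reverse-stranded protocol; the sources used here do not give the annotation, the strand setting or how multiply mapped reads were treated.

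Symbols, positions and exon lengths came from GENCODE M21 on GRCm38 (97.5% of IDs matched; the others held 0.163% of counts), promoters from RefSeq on GRCm38.p6. Counts were scaled by TMM over genes with at least 10 reads (edgeR 4.0.16, R 4.3.3; Python 3.11.15, pandas 2.3.3, scipy 1.17.1, matplotlib 3.10.9). TPM used the union of exons. With 1 group of 2 libraries no replicated test is possible, so reads of B were set against A by the exact binomial test. Log2 ratios were taken after adding 0.5 reads, and their intervals are Clopper-Pearson at 95%. The test was tried on data simulated with counting error only, so that trial does not cover spread between libraries. A floor of 3 counts was used for 0.

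All 35 genes are named; of each further list, the 2 with the highest mean TPM and every one called, plus overlapping genes and neighbours of Fgf4. The genes and lists were chosen with earlier results of these data known. The listed name Oct6 had no match. Some genes of the further lists are not reported here. Alternatives tried were scaling by DESeq2 1.42.0 or by totals, read filters of 1 and 50, the exact test of edgeR, removal of the GC trend, thresholds of 0.5 and 5 CPM, longest-transcript length, no length, and each library alone. TMM over all genes was added after the data were seen.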

Additional observations from a re-analysis of the deposited data

How the results depend on the processing

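No paired analysis was possible because there is 1 group of 2 libraries. None of the tested genes among the 35 was called under any of the 7 alternatives to the comparison of the libraries. Calls were rare over all genes too, at 2.29% in the main comparison. A count of 0 among 34 genes lies near that share and is no result about these genes. Over all genes the 417 calls became 1 with edgeR's exact test at a presumed CV of 0.1, which adds spread between libraries, and 144 with the GC trend removed. The scaling moved the split of these calls: 237 higher in B and 180 higher in A became 180 and 242 with total counts, 264 and 162 with DESeq2 size factors, and 311 and 152 with TMM over all genes. Of the 35 genes 31 reached 0.5 CPM and 26 reached 5 CPM in both libraries, and 30 reached 1 CPM without either library. With the longest transcript the median level was 21.3 TPM, and with each library alone it lay between 22.1 and 22.4 TPM. The share of Fgf4 among the listed FGF family genes was 78.9% with the longest transcript and 85.7% without length. With each library alone this share was 80.6% to 81.0%. Fgf8, with 22 reads over both libraries, had an interval of the ratio of B over A from 0.397 to 2.66, so depth limits what can be said of the ligands under 1 CPM.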
